A study of Mus musculus with 36 samples.

Results

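XX supporting cells of the fetal mouse gonad were compared between the stages labelled TS24 and TS34, with 3 arrays at each stage, so that 6 of the 36 arrays of the series carry the comparison. The members were the samples titled Sry_XX_TS24 and Sry_XX_TS34, both sorted from the Tg(Sry-EGFP)92Ei line on CD-1, in which an Sry transgene marks the supporting lineage. After trypsin digestion of gonads pooled by sex, cells stained with DAPI (a dye that marks dead cells) were sorted by fluorescence, and total RNA was read on Affymetrix Mouse Gene 1.0 ST arrays. Per the labels TS13, TS24 and TS34 lie before, during and after sexual differentiation of the gonad. Further groups of 3 arrays were used for context: XX supporting cells at TS13 from the same line, XY supporting cells at TS13 from the same line, and XY supporting cells at TS24 and TS34 from the Tg(Sox9-cre/ERT2)1Msan/J line on C57BL/6. Germ cells, used for reference levels, came from Oct4 reporter mice of mixed descent from C57BL/6NJ. The XY cells thus differ from the XX cells in reporter and strain as well as in sex at both stages compared, and these cannot be told apart. The labels do not say whether replicate arrays come from separate pools of animals, and the p-values therefore reflect the spread among these arrays alone, which may be technical.

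Supporting cells are the somatic lineage that surrounds the germ cells. In the testis they become Sertoli cells under SRY and SOX9, and in the ovary they become pregranulosa cells, which leave the cell cycle early, depend on WNT4, RSPO1 and FOXL2, and later enclose the oocytes in follicles. The step from TS24 to TS34 asks what changes in the XX lineage after the sexes have begun to diverge.

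Values are log2 expression, so a difference of 1 is a change of 2-fold, and differences are TS34 minus TS24 ± standard error (SE). Each is a difference of means with n = 3 arrays per group, and 17615 genes were tested. A gene was called at a limma adjusted p under 0.05 (Benjamini-Hochberg over all genes tested, two-sided), and "rose" and "fell" are used of called genes alone.

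Most markers of XX supporting cells were high in the sorted XX cells. At TS24 and TS34 the mean level of Fst was 12.24 and 11.96 against 6.65 in XY cells at TS34, that of Rspo1 was 10.24 and 10.01 against 7.82, and that of Bmp2 was 10.35 and 9.67 against 6.03. Wt1 stood at 11.49 and 11.26 and Gata4 at 10.02 and 9.80, as genes of the gonadal somatic lineage. Foxl2 did not separate the sexes on this array: it read 6.36 and 6.29 in XX cells against 6.61 and 6.23 in XY cells at TS24 and TS34. Lgr5 did not mark XX cells at TS24 either, at 9.38 in XX and 9.88 in XY cells, and read 9.85 and 9.00 at TS34. The testis genes Sox9 (8.78 and 8.73 against 11.03) and Amh (5.99 and 5.92 against 9.84) were lower in both XX groups than in XY cells at TS34. Sox9 was not low in XX cells, since the medians of these XX arrays ran from 6.493 to 6.815. The germ cell gene Ddx4 (5.55 and 5.82 against 11.31 in XX germ cells at TS24, 2 arrays) was low in both XX groups.

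The step was small. Of the genes tested, 113 were called (0.641%), of which 31 were higher at TS34 (0.176%) and 82 lower (0.466%), and 1395 had an unadjusted p under 0.05. The rises ran from 0.80 to 1.93 with a median of 1.05, and the falls from -0.79 to -3.50 with a median of -1.03. Groups that did not overlap on the 3 against 3 arrays were found for 255 genes in the upward direction (1.45%) and for 2454 in the downward direction (13.9%). Of the called genes, 30 of the 31 rises and 80 of the 82 falls had groups that did not overlap.

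The excess of downward differences came with a lower median over all genes. Groups that did not overlap were not counted again after the scalings below. The median difference over all genes tested was -0.135, and the array medians were 6.815, 6.749 and 6.553 at TS24 against 6.656, 6.493 and 6.600 at TS34. Quantile normalization gave 63 higher and 52 lower genes, and centring each array on its median gave 56 and 52, so the share of rises among the calls went from 27.4% to 54.8% and 51.9%. All 31 rises kept their call under both scalings, whereas 49 of the 82 falls did. No called gene changed sign under any of the 17 alternative settings run. Below, a list of genes is therefore read against the median of -0.135 and not against 0.

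**Figure D1:**
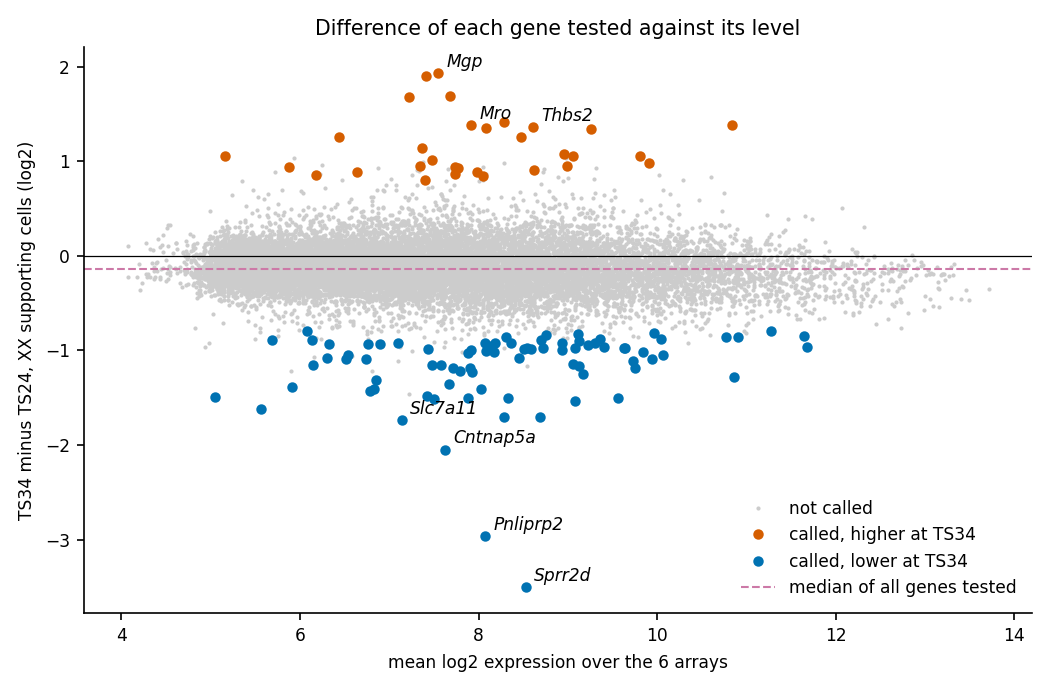
Difference between TS34 and TS24 in XX supporting cells (log2, vertical axis) against the mean log2 expression over the 6 arrays (horizontal axis) for the 17615 genes tested. The 31 called rises (orange) and 82 called falls (blue) lie on both sides of the dashed median of all genes, -0.135, and Sprr2d, Pnliprp2 and Mgp are among the outermost.

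Calls were lost when single arrays were left out. A fit with fewer arrays is also less precise, so a lost call need not mean that 1 array carried the difference. Leaving out 1 array at a time left between 38 genes (without TS34 replicate 2) and 100 (without TS24 replicate 1), with 51 without TS24 replicate 2, 61 without TS34 replicate 1 and 68 without TS34 replicate 3. Of the 31 rises 6, and of the 82 falls 17, kept their call in each of these 6 fits: the rises Mgp, Fabp7, Glb1l2, Gatm, Mro and Thbs2, and the falls Sprr2d, Pnliprp2, Cntnap5a, Slc7a11, Orc1, Igfbp3, Nfib, Adm, Utf1, Tgm3, Slc39a10, Pld1, Polr3g, Cd36, Ube2l6, Slc30a5 and Rps6ka3. Keeping the array of XX germ cells at TS24 that has a somatic profile (replicate 3) in the fit left 20 calls. Under every one of the 17 alternative settings 14 genes were called, namely Mgp, Thbs2, Mro and Glb1l2 among the rises and Sprr2d, Pnliprp2, Cntnap5a, Slc7a11, Orc1, Igfbp3, Tgm3, Slc39a10, Polr3g and Ube2l6 among the falls.

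Mgp, matrix Gla protein, an inhibitor of calcification in the extracellular matrix, showed the largest rise. It read 7.10, 6.19 and 6.45 on the arrays of TS24 and 9.02, 8.52 and 7.99 on those of TS34. Every TS34 array was above every TS24 array, and the difference was 1.93 ± 0.24 (3.81-fold, adjusted p = 6.48e-07). In XY cells its means were 5.94 and 6.03 at the same stages.

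Thbs2, a matricellular thrombospondin, had a mean of 7.93 ± 0.10 (SD, n = 3) at TS24, with 7.82 as its lowest array, and read 9.38, 9.34 and 9.14 at TS34. Its arrays lay close together within each stage and well apart between stages, and it rose by 1.36 ± 0.19 (2.56-fold, adjusted p = 7.94e-06). The XY means were 5.74 and 5.66.

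Mro, maestro, known as a transcript of the developing testis, read 7.38, 7.08 and 7.23 at TS24 and 8.88, 8.55 and 8.41 at TS34, a rise of 1.38 ± 0.22 (2.61-fold, adjusted p = 1.94e-04). Its XX level at TS34 (mean 8.61) was still below that of XY cells at both stages (10.03 and 10.38). Gatm, which makes the precursor of creatine and is also abundant in Sertoli cells, read 10.42, 9.82 and 10.19 and then 11.85, 11.57 and 11.16. It rose by 1.38 ± 0.25 (adjusted p = 9.46e-04) and at TS34 its mean of 11.53 came near the XY mean of 12.11. For both genes every TS34 array was above every TS24 array.

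Glb1l2, a relative of beta-galactosidase, rose by 1.68 ± 0.23 (adjusted p = 3.90e-06), from 6.42, 6.05 and 6.67 to 7.98, 7.87 and 8.34. Fabp7, a fatty acid binding protein best known from neural progenitors, rose by 1.69 ± 0.30 (adjusted p = 9.46e-04), from 6.99, 7.44 and 6.09 to 9.01, 8.43 and 8.13. Fabp7 varied more within TS24 than Glb1l2, and neither overlapped between stages.

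All remaining rises lost their call in some fit with an array left out. Cst12, a cystatin, read 7.69, 5.45 and 6.26 at TS24 and 9.00, 8.24 and 7.84 at TS34. Its first array of TS24 came close to the lowest of TS34, and its difference of 1.90 ± 0.34 (adjusted p = 0.00106) had an adjusted p of 0.0574 without TS24 replicate 2. Gstm6, a mu-class glutathione transferase, read 7.93, 8.40 and 6.40 and then 8.93, 9.03 and 9.01, a rise of 1.41 ± 0.33 that lost its call in 4 of the 6 fits with an array left out (adjusted p up to 0.312). Plk2, a polo-like kinase, had tight groups (8.74, 8.40 and 8.62 against 9.86, 9.89 and 10.03) and rose by 1.34 ± 0.31 (adjusted p = 0.0216). The SE uses the spread pooled over all groups of the series, and Plk2 lost its call in 5 of those 6 fits (adjusted p up to 0.125). Its difference stayed between 1.25 and 1.42 in these fits.

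Further rises were the serpin Serpina3a (1.25 ± 0.26), the crystallin Crygb (1.26 ± 0.24), Cav1, the coat protein of caveolae (1.05 ± 0.24), Gstm7 (1.05 ± 0.23), the cyclic AMP phosphodiesterase Pde7b (1.01 ± 0.23), the microfibril protein Fbn2 (0.98 ± 0.20), the calcium sensor Vsnl1 (0.95 ± 0.24) and the actin adaptor Sorbs2 (0.95 ± 0.22). U90926 (1.35), Snora52 (1.14), Dipk1a (1.08) and Glb1l3 (1.05) were further large rises. Each of these 12 lost its call without at least 1 array. Glb1l3 was also the single rise whose TS24 mean (4.64) lay under the lower quartile of its arrays.

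**Figure D2:**
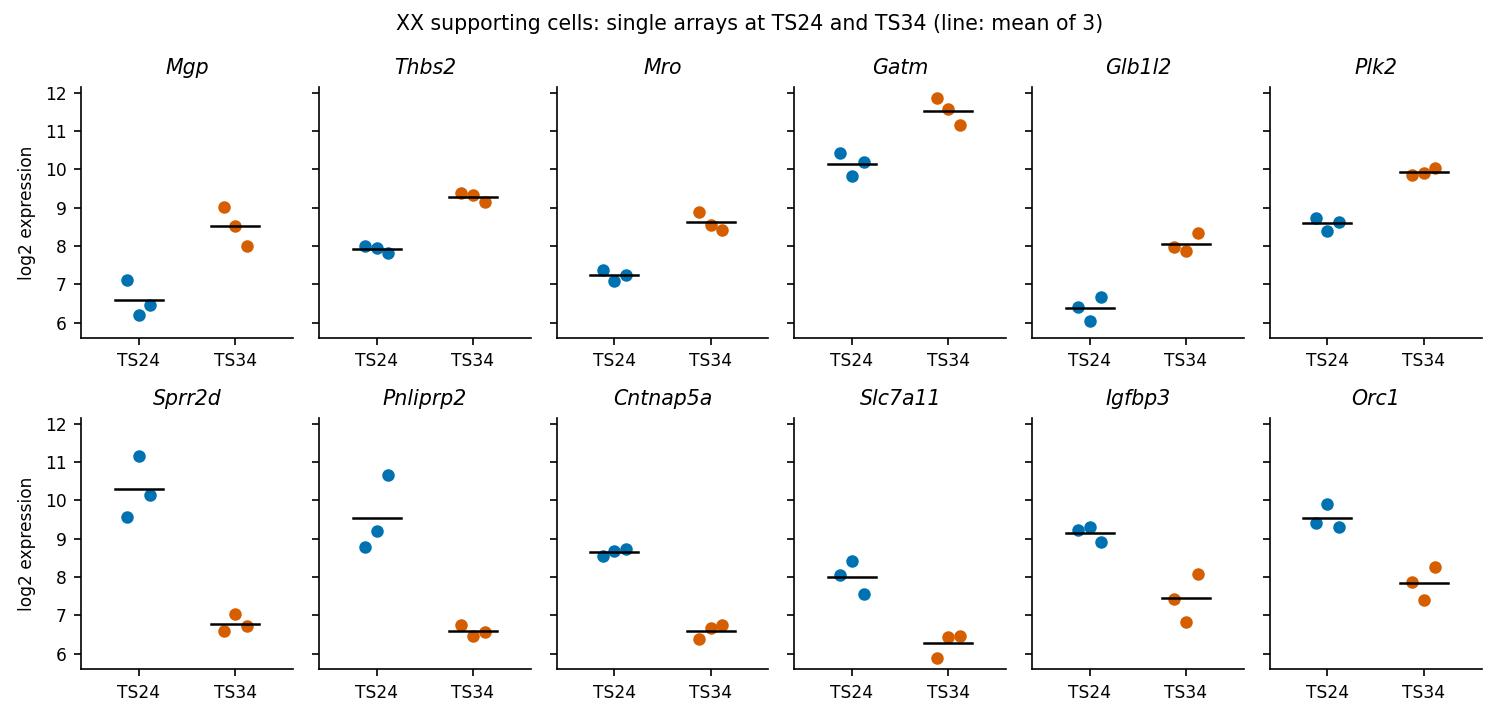
Log2 expression (vertical axis) on each of the 3 arrays of XX supporting cells at TS24 (blue) and TS34 (orange) for 6 rises (upper row) and 6 falls (lower row), with a line at each mean. In all 12 genes no TS24 array overlaps a TS34 array, and Sprr2d drops from between 9.57 and 11.15 to between 6.59 and 7.04.

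Sprr2d, a small proline-rich protein of cornified epithelia, fell the most. Its arrays read 9.57, 11.15 and 10.13 at TS24 and 6.59, 7.04 and 6.73 at TS34, a difference of -3.50 ± 0.26 (11.3-fold lower, adjusted p = 4.49e-14). At TS13 its XX mean had been 10.95, and in XY cells the means were 8.95, 6.06 and 5.66 from TS13 to TS34. XX cells at TS34 were therefore nearer the low XY level than XX cells at TS24 were. Sprr2d belongs to a cluster of near-identical genes, and whether its probes read only this member was not tested.

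The 250 bases upstream of the Sprr2d start are shown because they hold a site for AP-1, the FOS and JUN dimer (TGANTCA, its own reverse complement up to the free base), here in capitals. The sequence is from RefSeq, GRCm38.p6, chr3:92338890-92339139, plus strand.

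Sprr2d: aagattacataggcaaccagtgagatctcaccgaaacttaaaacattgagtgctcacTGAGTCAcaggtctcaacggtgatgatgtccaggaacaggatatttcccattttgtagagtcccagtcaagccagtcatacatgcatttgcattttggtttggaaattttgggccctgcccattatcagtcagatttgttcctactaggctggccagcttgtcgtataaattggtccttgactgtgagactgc

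A match to TGANTCA was present in the same window of 6.4% of the 13814 tested genes with a promoter entry, in 6 of 55 falls (10.9%) and in 1 of 24 rises (4.17%). A match describes the letters and not binding.

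Pnliprp2, a pancreatic lipase relative, fell by 2.96 ± 0.29 (log2; adjusted p = 6.22e-10), from 8.79, 9.20 and 10.65 to 6.75, 6.47 and 6.56. The fall continued a course that ran from a mean of 12.08 at TS13 to 9.55 and 6.59, and XY cells went from 11.74 to 10.05 and 8.18. Cntnap5a, a neurexin-family adhesion protein, read 8.56, 8.67 and 8.72 and then 6.38, 6.66 and 6.76, a difference of -2.05 ± 0.20 (adjusted p = 7.87e-10). Its replicates were tight at both stages, and its XY means were already low, at 5.47 and 5.34.

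Nfib, a nuclear factor I transcription factor, read 10.44, 9.99 and 10.50 and then 9.09, 8.40 and 8.93 (-1.50 ± 0.24, adjusted p = 2.05e-04), while its XY means were 10.08 and 10.14. Its second probe set gave -0.90 in the same direction. Adm, the vasoactive peptide adrenomedullin, read 8.48, 8.44 and 8.96 and then 7.35, 7.27 and 6.76 (-1.50 ± 0.24, adjusted p = 1.61e-04). Utf1, a chromatin factor of pluripotent cells, read 7.76, 8.64 and 8.10 and then 6.98, 6.46 and 6.60 (-1.48 ± 0.25, adjusted p = 4.76e-04). None of these 3 genes had a TS34 array within its TS24 range.

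Tgm3, an epidermal transglutaminase, fell by 1.36 ± 0.22 (log2), after a mean of 10.57 at TS13 and 8.34 at TS24. Other falls that held without any single array were the zinc transporters Slc39a10 (-1.28 ± 0.22) and Slc30a5 (-1.11 ± 0.22), the phospholipase Pld1 (-1.25 ± 0.23), the RNA polymerase III subunit Polr3g (-1.22 ± 0.23), the fatty acid receptor Cd36 (-1.15 ± 0.20), the ISG15-conjugating enzyme Ube2l6 (-1.15 ± 0.21) and the kinase Rps6ka3 (-0.96 ± 0.19). Rps6ka3 had the least spread of these, with 12.11, 12.18 and 12.19 at TS24 against 11.29, 11.14 and 11.17 at TS34.

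The other large falls lost their call without at least 1 array: Pglyrp1, a peptidoglycan receptor (-1.53), Ptpn3 (-1.51), the cytokine Il15 (-1.49), Hsd17b13 (-1.43), the relaxin-family peptide Insl6 (-1.41), Sparcl1 (-1.41), the vomeronasal receptor Vmn1r35 (-1.39) and Plac1 (-1.31). Il15 read 5.36, 6.96 and 5.06 at TS24, so that 1 array carried much of its difference, and without TS24 replicate 2 its difference was -0.90 (adjusted p = 0.0868). Ptpn3 has 12 probe sets on the array, and their differences ran from -1.51 for the set used to 0.27, so its fall is uncertain. Mir32, read by a probe set for the hairpin locus (-1.62, adjusted p = 0.0495), lost its call without any of the 6 arrays.

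Slc7a11 is the light chain of the cystine and glutamate exchanger xCT, which brings in cystine for glutathione synthesis. It read 8.06, 8.41 and 7.56 at TS24 and 5.90, 6.44 and 6.46 at TS34, and fell by 1.74 ± 0.21 (log2; adjusted p = 2.51e-07), or 3.35-fold. No TS34 array reached the lowest TS24 array. At TS13 its XX mean had been 8.29, and in XY cells it was low at every stage (5.32, 5.02 and 4.72).

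The Slc7a11 promoter is shown because it holds a pair of sites for ATF4, the factor of the amino acid response (TGATGNAA), at 66 to 59 and 47 to 40 bases before the start on opposite strands, and a forkhead site (GTAAACA) at 232 to 226 bases, all in capitals. It covers 250 bases from RefSeq, GRCm38.p6, chr3:50443614-50443863, minus strand.

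Slc7a11: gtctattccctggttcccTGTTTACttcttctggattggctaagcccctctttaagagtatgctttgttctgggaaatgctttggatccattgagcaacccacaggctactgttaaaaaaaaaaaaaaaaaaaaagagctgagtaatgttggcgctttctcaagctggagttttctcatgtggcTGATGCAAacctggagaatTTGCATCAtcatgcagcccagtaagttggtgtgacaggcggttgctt

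Both strands were searched, for 8 motifs in all. A match to TGATGNAA was present in 2.72% of the 13814 tested genes with a window, in 3 of 55 falls (Slc7a11, Hsd17b13 and Pnliprp1, 5.45%) and in 0 of 24 rises. Forkhead matches were present in 2.96% of tested genes, in Slc7a11 and Ccdc30 among the falls (3.64%) and in 0 of 24 rises. Among the other motifs, the antioxidant response element TGACNNNGC was present in 13.2% of tested genes and 9.09% of falls, the TCF/LEF motif ATCAAAG in 3.11% and 1.82%, the GATA motif AGATAA in 8.51% and 9.09%, and the NR5A1 motif CAAGGTCA in 1.3% and 1.82%.

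Few other genes of its pathway were called. Of 28 tested genes of cystine import and glutathione, 1 rose (Gstm7) and 1 fell (Slc7a11), and the list median was -0.11 against -0.135 for all genes. Its partner chain Slc3a2 gave -0.26 ± 0.23 and the glutathione synthesis genes Gclc 0.11, Gclm -0.10 and Gss -0.60 (adjusted p = 0.368). Several transferases stood above the median, with Gstm1 at 0.83 (adjusted p = 0.221, and 0.0265 after quantile normalization) and Gstm2 at 0.59. Among 23 genes of the amino acid and ATF4 response none was called, with a median of -0.11. Atf4 gave 0.06, Asns -0.81 (adjusted p = 0.175) and Atf3 0.92 (adjusted p = 0.272).

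Insulin-like growth factor genes gave more called falls than any other list. IGF1 is a growth factor, and the IGFBP proteins bind IGFs outside the cell and set how much reaches the receptor. Of 13 tested genes, 4 fell and 0 rose, and the list median was -0.37. Over all genes 0.466% fell, but the list was written with earlier results known, so its count is a description. Igfbp3 read 9.23, 9.30 and 8.90 at TS24 and 7.42, 6.82 and 8.09 at TS34 (-1.70 ± 0.30, adjusted p = 9.46e-04), with more spread at TS34 and no overlap.

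Igfbp2 read 9.54, 9.43 and 9.93 and then 8.99, 8.10 and 8.40 (-1.14 ± 0.23, adjusted p = 0.00425). Igfbp5 read 10.43, 10.95 and 10.10 and then 9.52, 9.27 and 9.41 (-1.09 ± 0.26, adjusted p = 0.0236). Igf1 read 9.88, 9.47 and 9.35 and then 8.55, 8.49 and 8.96 (-0.90 ± 0.21, adjusted p = 0.0239). All 3 had groups that did not overlap, but without 1 array their calls were lost in 2, 5 and 4 of 6 fits, with adjusted p up to 0.119, 0.296 and 0.208, and Igfbp5 also lost its call after quantile normalization. The other members were not called: among them the receptors Igf1r gave 0.11, Insr -0.16 and Igf2r -0.26, and Igf2 itself gave -0.19.

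The XX and XY steps differed for Igfbp3 and Igf1. Igfbp3 went from 8.49 to 9.20 and Igf1 from 5.99 to 6.56 there (adjusted p = 0.297 and 0.229), and the XX step minus the XY step was -2.40 ± 0.43 for Igfbp3 (adjusted p = 0.00281) and -1.47 ± 0.30 for Igf1 (adjusted p = 0.0103). For Igfbp5 it was -1.47 (adjusted p = 0.0634) and for Igfbp2, whose XY difference was -0.80 (adjusted p = 0.0766), -0.34 ± 0.32.

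Mitosis genes were lower in XX than in XY supporting cells at both stages. The mean over 19 mitosis genes ran from 6.53 to 7.33 on the TS24 arrays and from 6.43 to 6.85 on the TS34 arrays, against 9.25 to 9.99 on the XY arrays of these stages. Only Cdk1, the mitotic kinase, was called (-0.99 ± 0.24, from 8.36, 7.99 and 7.43 to 7.01, 7.26 and 6.55, adjusted p = 0.0278), and it lost its call in 4 of 6 fits with an array left out. Cdk1 also lost its call under both scalings. All 19 differences were below 0, with a median of -0.36, which was -0.24 after quantile normalization. The mean over 20 DNA replication genes was 7.63 to 8.36 on the XX arrays and 8.60 to 9.01 on the XY arrays, and that over 17 CDK inhibitors and G1 cyclins was 8.43 to 8.90 and 8.30 to 8.54. The median difference of the replication genes was -0.35 with 0 called, and that of the CDK inhibitors and G1 cyclins was -0.11 with 0 called.

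Outside those lists, Orc1, the largest subunit of the origin recognition complex, read 9.41, 9.91 and 9.30 at TS24 and 7.86, 7.40 and 8.25 at TS34. The groups did not overlap, and it fell by 1.70 ± 0.23 (adjusted p = 6.16e-06). The DNA ligase Lig1 fell by 0.86 ± 0.21 (adjusted p = 0.026). Prpf38a, a splicing factor that lies beside Orc1 and is transcribed away from it, also fell, from 11.30, 11.51 and 11.20 to 10.54, 10.37 and 10.50 (-0.86 ± 0.21, adjusted p = 0.0331). Lig1 and Prpf38a lost their calls in 4 and 5 of 6 fits with an array left out.

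The 117 bases between the opposed starts of Orc1 and Prpf38a are shown because both genes fell and they share this stretch. It lies at chr4:108579337-108579453 in RefSeq, GRCm38.p6, printed on the plus strand towards Orc1, with a match to the E2F motif TTTNGCGC (reverse strand) in capitals.

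Orc1 and Prpf38a: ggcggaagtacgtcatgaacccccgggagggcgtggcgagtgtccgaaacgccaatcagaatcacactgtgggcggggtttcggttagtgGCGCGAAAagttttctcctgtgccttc

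E2F proteins switch on genes of DNA replication at the start of S phase. The motif was present in the 250-base window of 1.93% of tested genes, in Orc1, Prpf38a and Cdk1 among 55 falls (5.45%; the site of Orc1 and Prpf38a is the same) and in 0 of 24 rises.

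Genes of supporting cell identity gave 3 calls in all. Among 19 pregranulosa genes none was called, with a median of -0.29 against -0.135 for all genes. The list median was -0.08 after quantile normalization and -0.17 after median centring. Wnt4 gave -0.58 ± 0.22 (adjusted p = 0.397), Bmp2 -0.69 ± 0.20 (adjusted p = 0.142), Gng13 0.32 and the WNT target gene Lgr5 0.47 ± 0.22 (adjusted p = 0.586). Of 24 Sertoli genes 2 rose, Mro and Gatm, and the median was -0.04. The rest of that list gave no call, with Defb19 at 0.68 ± 0.29 (adjusted p = 0.501), Clu at 0.54 (adjusted p = 0.555), Dmrt1 at -0.48 and Nr0b1 at -0.82 ± 0.30 (adjusted p = 0.368).

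Of 14 genes of the gonadal progenitor, 1 fell, Podxl, a sialomucin of podocytes and coelomic epithelium (-1.02 ± 0.24, from 10.26, 10.16 and 10.64 to 9.59, 9.14 and 9.26, adjusted p = 0.0239). Podxl lost its call under both scalings. No member was above 0, the median was -0.32, and the cell fate regulator Numb gave -0.92 (adjusted p = 0.0565) and Lhx9 -0.76 (adjusted p = 0.29).

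The matrix genes that rose were not collagens. Of 22 matricellular and elastic matrix genes, Mgp, Thbs2 and Fbn2 rose and Sparcl1 fell, with a median of -0.19. Fbn2 read 9.74, 9.56 and 8.96 and then 10.67, 10.49 and 10.05. Its first array of TS24 lay below the lowest array of TS34. Sparcl1 (8.50, 8.64 and 9.07, then 7.94, 6.87 and 7.17) lost its call under both scalings. None of 24 collagen and collagen processing genes (median -0.14), 16 basement membrane genes (median 0.03) or 13 matrix proteases and inhibitors (median -0.09) was called.

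Signalling lists gave few calls. None of 21 WNT ligands and receptors (median -0.06), 13 WNT feedback targets (-0.21), 25 BMP and activin genes (-0.18) and 21 Notch and hedgehog genes (-0.13) was called. Among the feedback targets Axin2 gave 0.41 (adjusted p = 0.63) and Ccnd1 -0.59 (adjusted p = 0.501). Of 14 retinoic acid genes, 1 fell, the binding protein Crabp2 (-1.08 ± 0.27, from 9.54, 8.98 and 8.44 to 8.36, 7.16 and 8.21, adjusted p = 0.0376), which lost its call under both scalings. The synthesis enzyme Aldh1a1 gave 0.85 ± 0.23 (adjusted p = 0.0645) and was called after quantile normalization (adjusted p = 0.00725), and its relative Aldh1a7 rose by 0.86 ± 0.21.

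Metabolic lists gave no call outside the glutathione genes: 15 cholesterol synthesis genes had a median of -0.14, 12 steroidogenic genes -0.17 and 17 glycolysis genes -0.35, with Pgk1 at -0.73 (adjusted p = 0.136). None of 16 imprinted genes was called (median -0.19). List medians moved with the scaling: after quantile normalization that of the Sertoli list went from -0.04 to 0.09, of the retinoic acid list from -0.04 to 0.07 and of the glutathione list from -0.11 to 0.05. Those that stayed below 0 include pregranulosa (-0.29 to -0.08), gonadal progenitor (-0.32 to -0.19) and glycolysis (-0.35 to -0.21). In all, 490 genes on the 33 lists were tested and 18 were called, beside 0.641% of all genes. The lists were written with earlier results of these data known, so nothing is read from that difference.

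**Figure D3:**
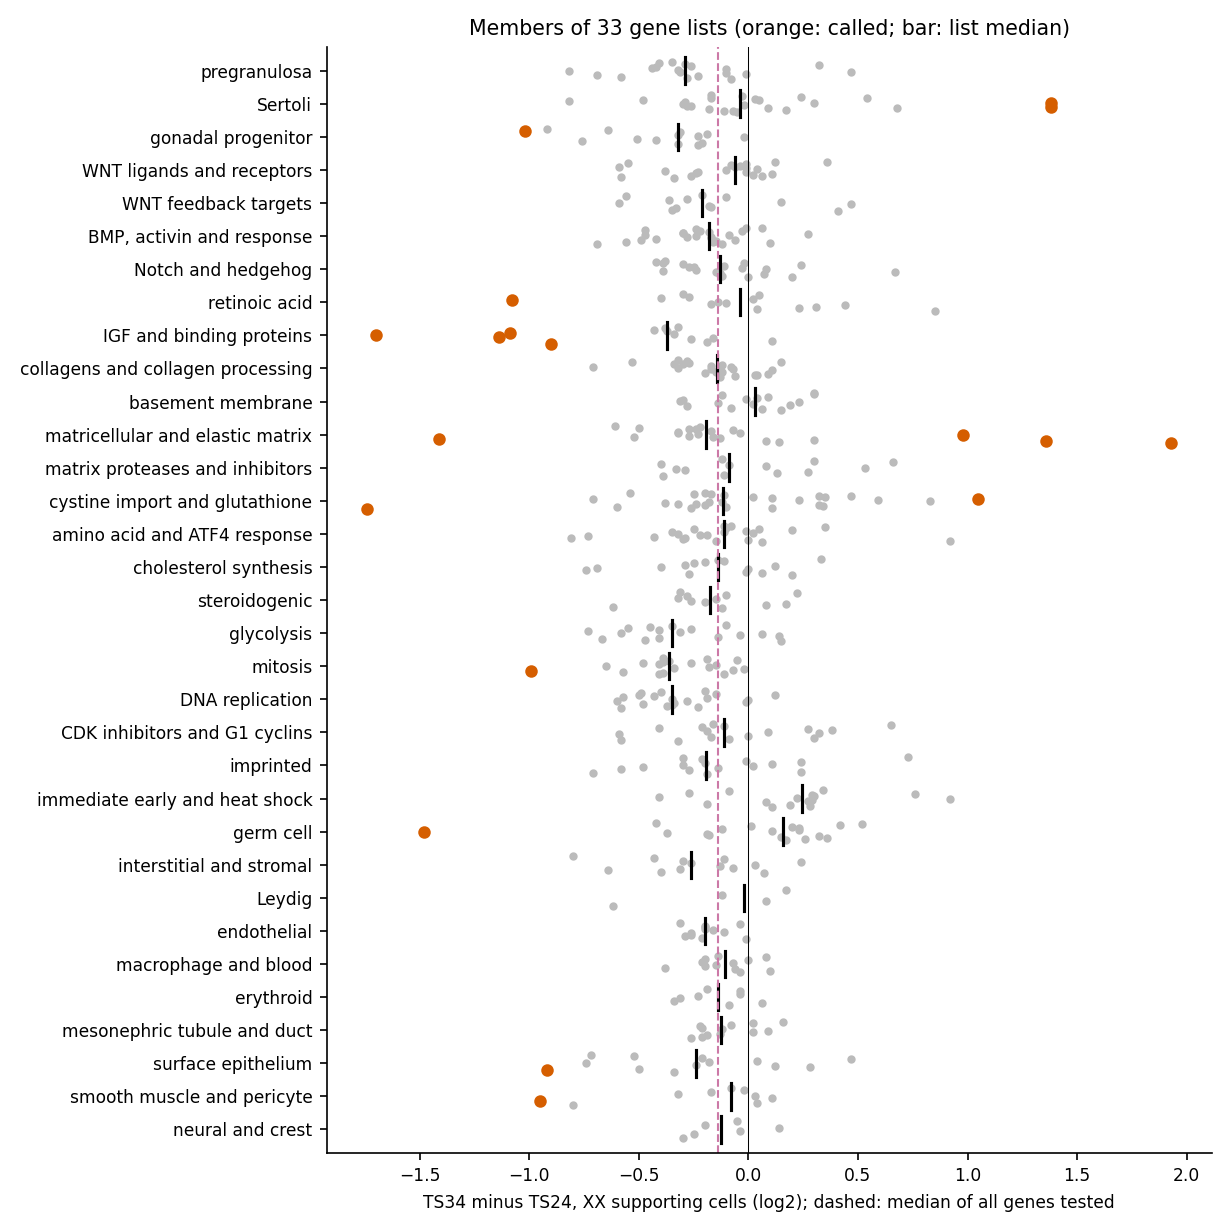
Difference between TS34 and TS24 in XX supporting cells (log2, horizontal axis) for each tested member of 33 gene lists (rows). Orange points are called genes, black bars are list medians and the dashed line is the median of all genes, -0.135; the IGF row holds 4 called falls, from -0.90 to -1.70.

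Some called genes are near neighbours in the genome. With at most 2 other protein-coding genes between them, 13 pairs of called genes were found, which hold 24 of the 113 genes, and the members of all 13 pairs moved in the same direction. In 9 of the pairs no coding gene lay between, and in 4 at least 1 did. As background, 64% of the 17189 neighbouring pairs among all tested genes had differences of the same sign, and 72.6% of all calls were falls. How many such pairs any 113 tested genes would hold was not tested. With an array left out, Plxna4 lost its call in 6 of 6 fits, and Gabrb1, Bmerb1, Prpf38a and Pnliprp1 in 5 of 6. Plxna4, Gabrb1, Bmerb1, Podxl and Sparcl1 lost theirs under both scalings. Glb1l2, Pnliprp2, Orc1 and Nfib kept their calls in all 6 fits and under both scalings. Paralogous neighbours were Glb1l2 and Glb1l3 (1.68 and 1.05) and Gstm6 and Gstm7 (1.41 and 1.05) among the rises. Among the falls they were Pnliprp1 and Pnliprp2 (-0.89 and -2.96), Igfbp2 and Igfbp5 (-1.14 and -1.09), the GABA receptor genes Gabra4 and Gabrb1 (-1.17 and -1.02), and the monoamine oxidases Maoa and Maob (-1.15 for Maob). Probes can be shared between close relatives, and whether they were was not tested.

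Other neighbours are not relatives: Orc1 and Prpf38a, Podxl and Plxna4 (-1.02 and -0.86), Nfib and 2310067E19Rik (-1.50 each, the second lying within the span of the first), Hsd17b13, Nudt9 and Sparcl1 (-1.43, -0.98 and -1.41), and Ifitm7, Bmerb1 and Myh11 (-1.19, -0.92 and -0.95). Maoa, which degrades serotonin and noradrenaline, read 9.53, 9.44 and 9.31 and then 8.68, 8.04 and 8.57. Maob read 7.90, 7.90 and 8.37 and then 6.91, 6.69 and 7.11. Neither overlapped between stages, and each lost its call without TS34 replicate 2 alone. Of 611 tested genes on the X chromosome 6 were called (0.982%, against 0.641% of all genes), and these 6 fell, as did 72.6% of all calls.

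The same step in XY supporting cells had 187 genes called (1.06%), 28 higher and 159 lower, and a median over all genes of -0.173. Of the genes called in XX cells, 10 were also called in XY cells in the same direction and 0 in the opposite one, which is 8.85% of the XX calls and 5.35% of the XY calls. These were the rises Cst12 (2.19 in XY), Kazald1 (0.98) and Vsnl1 (0.93), and the falls Pnliprp2 (-1.87), Plxna4 (-1.37), Pglyrp1 (-1.13), Sel1l3 (-0.98), Maoa (-0.95), Utf1 (-0.95) and Orc1 (-0.89). Over the 31 XX rises the median XY difference was 0.10, and over the 82 XX falls it was -0.30, against -0.173 for all genes.

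**Figure D4:**
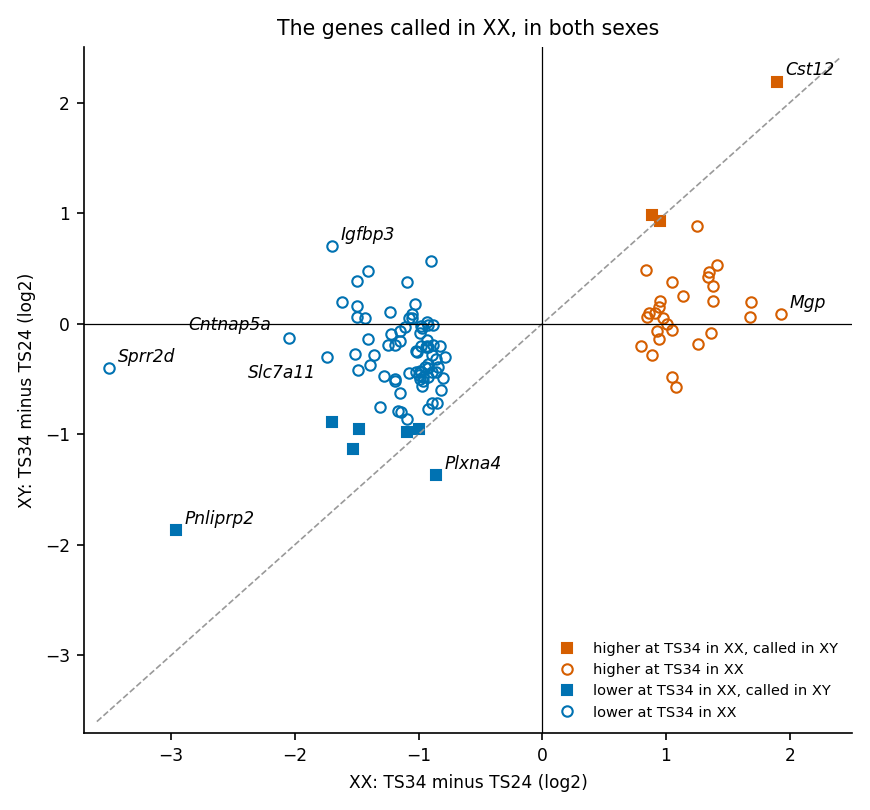
Difference between TS34 and TS24 (log2) in XX supporting cells (horizontal axis) and in XY supporting cells (vertical axis) for the 113 genes called in XX; filled squares were also called in XY and the dashed line marks equal differences. Cst12 and Pnliprp2 moved the same way in both sexes, whereas Sprr2d and Mgp lie near 0 in XY.

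The test of the difference between the XX and the XY step called 40 genes (0.227%), 21 with the higher difference in XX and 19 with the lower, and 599 had an unadjusted p under 0.05. Some of them were also called in the XX step: Mgp (1.84 ± 0.34, adjusted p = 0.00384), Glb1l2 (1.62 ± 0.32, adjusted p = 0.00729), Thbs2 (1.44 ± 0.27, adjusted p = 0.00384), Sprr2d (-3.10 ± 0.36, adjusted p = 4.87e-07), Cntnap5a (-1.93 ± 0.29), Nfib (-1.56 ± 0.35), Adm (-1.66 ± 0.34) and Slc7a11 (-1.44 ± 0.30, adjusted p = 0.0111). In XY cells Sprr2d, Cntnap5a, Adm and Slc7a11 were already low at TS24, with means of 6.06, 5.47, 5.46 and 5.02. The lower quartiles of those arrays were 5.398, 5.401 and 5.392. Whether these low levels play a part in the difference between the steps was not tested. For Mro the difference between steps was 1.04 ± 0.32 and did not pass (adjusted p = 0.297).

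Others were called in the XY step and not in the XX step. The aminopeptidase gene Anpep gave 0.11 in XX and -1.88 in XY, Ifitm1 -0.25 and -1.91, the LRP receptor gene Lrp4 -0.14 and -1.78, Nell1 0.06 and -1.61, and the testis growth factor Fgf9 0.17 and -1.12. In the other direction the steroid enzymes Cyp11a1 (-0.62 in XX, 1.18 in XY) and Cyp17a1 (0.08 and 1.68), the adhesion genes Jam2 (-0.06 and 1.64) and Ctnna2 (0.08 and 1.74), and Etd (-0.13 and 1.59) rose in XY cells and were not called in XX cells. Cyp11a1 and Cyp17a1 are also on the list of Leydig cell genes. The mean of that list was 5.89 to 6.42 on the XY arrays of TS24 and 6.91 to 7.21 on those of TS34. Whether Leydig cell RNA in the sorted XY cells plays a part was not tested. For Lgr5 the steps also differed, at 0.47 in XX and -0.88 in XY (1.35 ± 0.31, adjusted p = 0.0388). Reporter and strain differ between the sexes but not between the stages compared within a sex.

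The step before it was larger. From TS13 to TS24, XX supporting cells had 592 genes called (3.36%), 457 higher and 135 lower, and a median over all genes of 0.106. Both steps use the TS24 arrays, so their differences share error and are given side by side only. Thbs2 had 1.68 in that step and 1.36 in the later one, Gatm 1.96 and 1.38, Sorbs2 2.54 and 0.95, Fbn2 2.22 and 0.98, and Gstm6 2.17 and 1.41. Mro (0.25 and 1.38), Glb1l2 (0.46 and 1.68) and Mgp (0.78 and 1.93) had their larger value in the later step. Among the falls, Tgm3 gave -2.22 and -1.36, Plac1 -2.20 and -1.31 and Il15 -1.89 and -1.49, whereas Sprr2d gave -0.66 and -3.50, Slc7a11 -0.27 and -1.74 and Cntnap5a -0.54 and -2.05. Ube2l6 turned from 1.48 to -1.15, Maob from 1.10 to -1.15 and Oasl2, an interferon-induced gene, from 1.08 to -1.01.

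Markers of other cell types gave 3 calls. None of 12 endothelial, 12 macrophage and blood, 8 erythroid, 12 mesonephric, 13 interstitial and stromal, 4 Leydig and 6 neural genes was called. The mean level of the erythroid list was 6.36 to 7.04 on the TS24 arrays and 6.15 to 6.87 on the TS34 arrays. Hbb-y, an embryonic globin, varied widely within each stage, at 10.85, 5.49 and 9.54 on the TS24 arrays and 9.37, 6.42 and 10.26 on the TS34 arrays. Replicate 2 was the lowest of each stage, and the same arrays are among those whose removal changed many calls; the part of blood RNA in the called genes was not tested. The interstitial and stromal list had a median of -0.26 against -0.135 for all genes, with 6 of 13 members whose groups did not overlap downward (13.9% of all genes), and its mean was 7.37 to 7.74 and then 7.30 to 7.46. That share was not particular to stromal genes: it was 9 of 17 for glycolysis, 7 of 14 for gonadal progenitor and 7 of 19 for pregranulosa genes. It was 2 of 12 for endothelial and 0 of 12 for mesonephric genes. Of 18 germ cell genes, Utf1 alone was called and fell. The list mean was 5.95 to 6.48 and then 5.93 to 6.45, and Pou5f1 (5.33 and 5.50 against 10.70 in XX germ cells at TS24) and Ddx4 had low means. On single arrays Ddx4 read 6.56, 4.84 and 5.25 and then 6.75, 5.67 and 5.02. Dazl read 6.70, 4.74 and 4.97 and then 6.45, 5.34 and 5.70. For both genes the first array was the highest of each stage, and the part of germ cell RNA in the called genes was not tested. In sorted bulk samples a smaller share of cells and less RNA per cell cannot be told apart.

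The stages did not overlap in the mean of the surface epithelium list, and those of the endothelial list met at 6.20. Of 13 surface epithelium genes, Krt7 fell (8.70, 9.67 and 8.09, then 7.68, 7.99 and 8.04; -0.92 ± 0.23), but lost its call in 5 of 6 fits with an array left out and under both scalings, and the list mean was 8.01 to 8.35 and then 7.77 to 7.95. Of 9 smooth muscle genes, the myosin Myh11 fell (-0.95 ± 0.20, from 8.74, 8.55 and 8.53 to 7.74, 7.46 and 7.77), with Acta2 at -0.80 (adjusted p = 0.123). None of 16 immediate early and heat shock genes, which respond to dissociation, was called. Their median was 0.25 against -0.135 for all genes, and it was 0.43 after quantile normalization and 0.37 after median centring. Hspa1a gave 0.76 (adjusted p = 0.359), and the list mean was 8.91 to 9.24 and then 9.13 to 9.53. Whether these shifts play a part in the called genes was not tested.

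**Figure D5:**
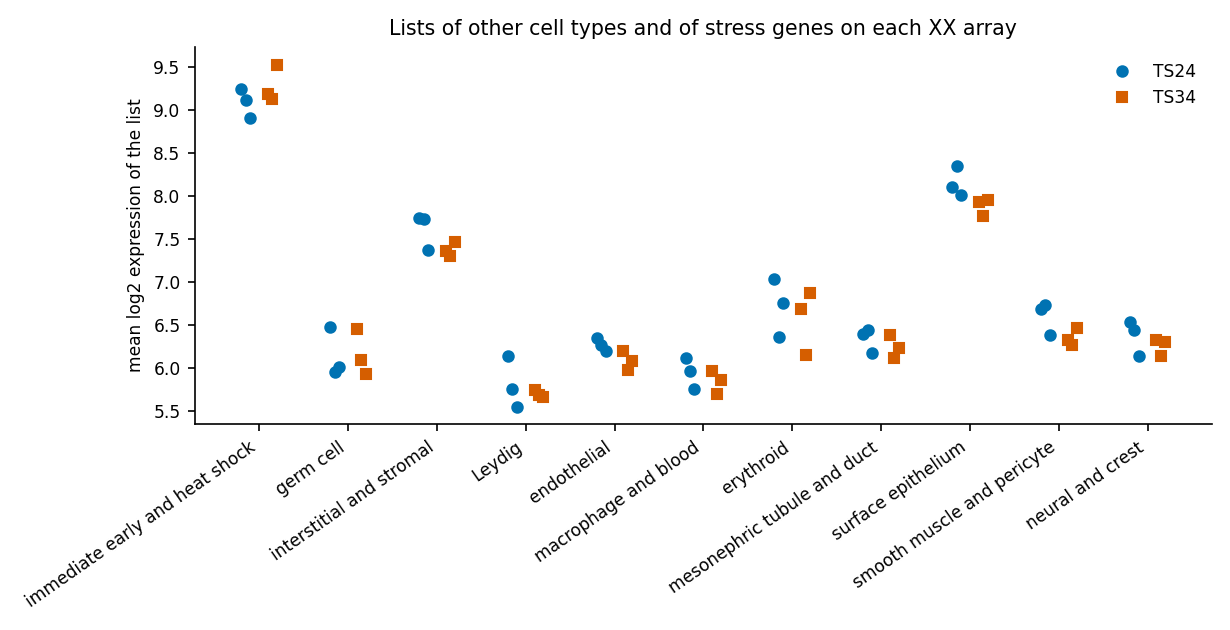
Mean log2 expression (vertical axis) of the lists of stress genes and of other cell types (horizontal axis) on each of the 3 XX arrays at TS24 (blue circles) and TS34 (orange squares). The stages overlap in the germ cell and erythroid lists, and the surface epithelium list runs from 8.01 to 8.35 at TS24 and from 7.77 to 7.95 at TS34.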

How the data were processed

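Mouse Gene 1.0 ST arrays of sorted gonadal cells were analysed from the deposited value table, whose log2 expression values the authors made with RMA, which the submitters' processing notes name without a version; per the labels no further step is recorded. Arrays were assigned to groups by their titles. Probe sets were named through GEO's platform annotation with symbols updated by RefSeq tables; of 35557 probe sets, 21789 had 1 symbol, 1621 several and 12147 were not listed or had no symbol. No gene was named from a probe set with several. Each gene was represented by its probe set with the highest mean, and genes above the 25th percentile of the array on at least 3 arrays were tested, 17615 in all.

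Group means were fitted with limma 3.58.1 (lmFit and eBayes, R 4.3.3) to 12 groups on 35 arrays, without the XX germ cell array at TS24 that has a somatic profile. P-values were adjusted by Benjamini-Hochberg over all genes tested and called under 0.05. The code was tested on simulated data. Named genes were the 20 largest called rises and 20 largest called falls with groups that do not overlap, the 10 largest called differences between the XX and XY steps each way, called members of the gene lists, 4 markers (Mgp, Thbs2, Mro and Slc7a11) and up to 4 members of each list by size of difference; others in the text were chosen after their values were seen. Members and gene lists were chosen with earlier results of these data known, and motifs after the calls were known. Alternatives covered array set, scaling, filter, probe set rule, variance model, array weights, a replicate block and leaving out each array.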

Additional observations from a re-analysis of the deposited data

Results flagged for a closer look

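The test of the XX step minus the XY step from TS24 to TS34 itself (limma, adjusted over all genes) called 40 genes, and the largest are given here as log2 differences with no explanation weighed. The step was higher in XX for Anpep (1.98), Mgp (1.84), Gem (1.79), Fam83d (1.74), Nell1 (1.67), Ifitm1 (1.65), Dipk1a (1.65), Lrp4 (1.64), Glb1l2 (1.62) and Slc41a2 (1.56). It was lower in XX for Sprr2d (-3.10), Igfbp3 (-2.40), 4930486L24Rik (-2.17), Cntnap5a (-1.93), Insl6 (-1.89), Cyp11a1 (-1.81), Etd (-1.72), Jam2 (-1.69), Ctnna2 (-1.66) and Adm (-1.66). Sex and mouse line cannot be told apart in these differences. Sprr2d, Cntnap5a, Insl6 and Adm were already low in XY cells at TS24 (6.06, 5.47, 5.31 and 5.46), and whether this plays a part was not tested.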

How the results depend on the processing

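Counts of called genes depended on the array set and on array weights. With all 36 arrays 20 genes were called in the XX step from TS24 to TS34, 13 in the XX step minus the XY step, 296 in the XX step from TS13 to TS24 and 74 in the XY step. With array weights the counts were 331, 85, 1214 and 870. Quantile normalization gave 63 in the XX step minus the XY step. Leaving out 1 array at a time gave 38 to 100, 20 to 37, 347 to 729 and 70 to 315, in the same order. The cause was not tested. No called gene of the XX step from TS24 to TS34 changed sign. Same-numbered arrays of the XX groups had correlations of -0.215, -0.066 and -0.052 in their deviations from group means. Differently numbered arrays had correlations from -0.188 to 0.262. Deviations from a mean of 3 arrays are tied to each other, so these values cannot show whether replicate numbers pair the samples. With the replicate number as a block the counts were 111, 36, 594 and 192. With 3 arrays per group, the number of arrays limits the precision.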
